A study of Mus musculus with 12 samples.

Results

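The genes described here make fatty acids and assemble them into triglycerides in the liver. They are 31 listed symbols, read in the array value table through rows whose platform annotation names exactly 1 gene, with the row of the highest mean over the 12 arrays standing for each symbol. Of the 31, 30 were measured, out of 19938 genes with such a row. Acsl3 shares its row with another gene and is not analysed here. Mogat1 fell among the 25% of genes with the lowest mean, which were not tested, so 29 members were tested.

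Livers of 12 mice aged 7 weeks were profiled, 1 array per animal, in 3 groups of 4. The groups were wild type mice, transgenic mice in which the LAP promoter drives constitutively active FoxO3, and further transgenic mice of that kind that received metformin, a biguanide that lowers blood glucose. The background was mixed C57BL/6 and NMRI for all, with 4 or more backcrosses to C57BL/6. The labels give neither the sex of the animals nor how much metformin was given, how or for how long. None of the 12 was a wild type mouse on metformin, so an effect of the drug without the transgene was not analysed here. LAP is a promoter used to express genes in hepatocytes.

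In hepatocytes, citrate leaves the mitochondrion and is split to acetyl-CoA, which acetyl-CoA carboxylase and fatty acid synthase turn into palmitate. Elongases and desaturases then reshape the chain, and acyltransferases, lipins and diacylglycerol acyltransferases place it on glycerol to give triglyceride. Insulin raises this programme, largely through the transcription factor SREBP-1c made from Srebf1, whereas FoxO factors are held out of the nucleus by insulin signalling. Metformin is known for lowering hepatic glucose output and for activating AMP-activated protein kinase, which phosphorylates and inhibits acetyl-CoA carboxylase.

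Several facts about the arrays bear on every result. Values are log2 signals, so a difference of 1 is a 2-fold change of signal. Xist, the RNA of the inactive X chromosome, was at 11.73 and 11.66 in the first and the fourth wild type liver and at 10.57 to 11.95 in all 4 metformin-treated livers, against 4.24 to 4.70 in the other 6; the Y-linked Eif2s3y was high in those 6. Metformin treatment and this sex signal therefore cannot be told apart in the comparison of the transgenic groups. Transgenic replicate 2 had a mean correlation of 0.984 with the wild type arrays and of 0.968 with its own group, and metformin-treated replicate 3 had the lowest within its group (0.974). The hepatocyte markers Alb, Ttr, Apoa1, Apoc3, Tat, Cps1, Hnf4a and Cyp2e1 had means of 11.96 to 13.80 over the arrays. Foxo3 had a mean of 8.82 ± 0.16 (SD, n = 4) over the transgenic arrays against 8.77 ± 0.16 over those of wild type (two-sided exact permutation test, p = 0.571, where 0.0286 is the smallest possible); the sources used here do not say whether its probes detect the transgene. In bulk tissue, fewer cells of a type and less RNA per cell cannot be told apart.

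More of these lipid synthesis genes were lower than higher in transgenic against wild type livers. More were higher than lower in metformin-treated against untreated transgenic livers. The sex signal was mixed in wild type, Y-linked in all transgenic and Xist in all metformin-treated livers. Its make-up therefore differs in every comparison, and fully in that of the transgenic groups. Of the 29 tested members, 12 fell and 2 rose in transgenic against wild type livers, at an adjusted p under 0.05 in limma with Benjamini-Hochberg adjustment over all tested genes. Over all 14953 genes tested, 6.15% were called lower and 7.97% higher in that comparison, 14.1% in all. After centring each array on its median, 9 members fell and 2 rose (14.5% of all genes called), and the split of all calls moved from 1192 higher and 919 lower to 1614 and 552. With metformin, 13 of the 29 rose and 2 fell against untreated transgenic livers, where 10.6% of all genes were called higher and 14.1% lower, 24.7% in all. With centring 11 members rose and 3 fell (24.7% of all genes), and the split of all calls moved from 1583 higher and 2112 lower to 1108 and 2591. Between metformin-treated transgenic and wild type livers 0 of the 29 passed (limma), with 2.43% of all genes called (0.99% higher and 1.44% lower) and 6 members at an unadjusted p under 0.05. The median log2 difference of the 29 was -0.42, 0.41 and -0.0025 in these comparisons, and that of all tested genes was -0.013, -0.0058 and -0.018. The first and second comparison share the 4 transgenic arrays, so their values are given side by side and are not independent of each other.

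**Figure D1:**
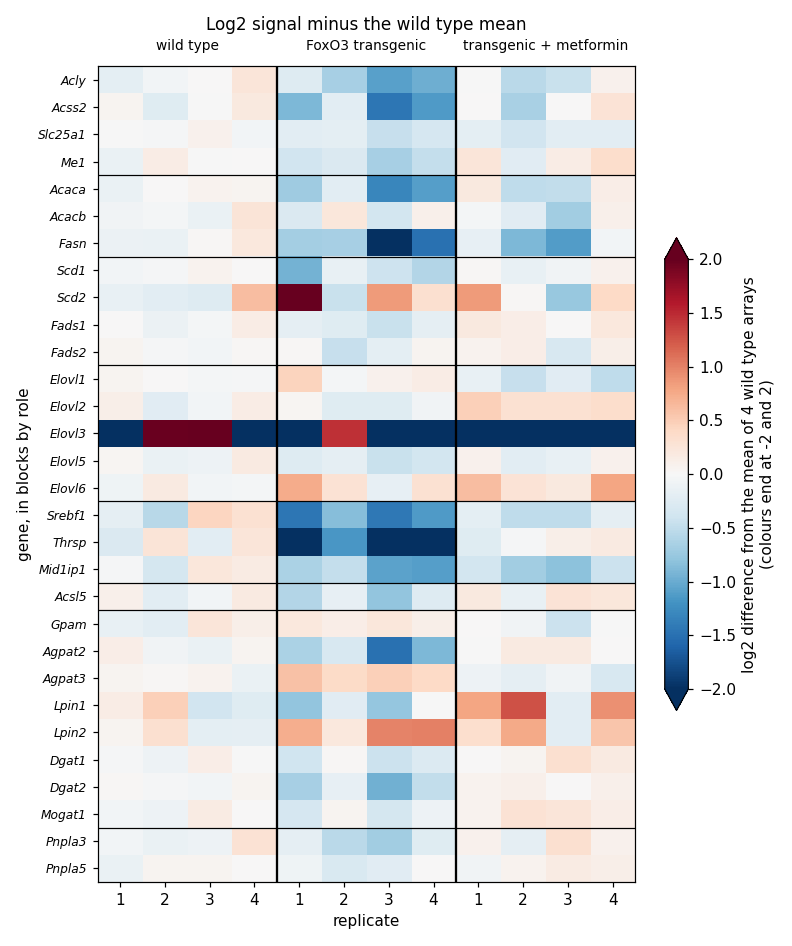
Each row is 1 of the 30 measured genes, grouped in blocks from precursor supply at the top to glycerolipid assembly and the Pnpla genes at the bottom, and each column is 1 array. Colour gives the log2 signal minus the mean of the 4 wild type arrays and ends at -2 and 2; Thrsp, Srebf1 and Fasn are blue in all 4 transgenic columns, Thrsp is pale in the metformin-treated ones, Fasn is still blue in replicates 2 and 3 of them, and transgenic replicate 2 is the palest transgenic column for many genes.

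All 3 regulators among the members fell in transgenic livers. Srebf1 encodes the SREBP-1 transcription factors that switch on most genes of this pathway. It read 9.36, 8.998, 9.98 and 9.85 in wild type replicates 1 to 4, 8.11, 8.69, 8.12 and 8.42 in transgenic livers and 9.35, 9.03, 9.04 and 9.36 in metformin-treated transgenic livers. All 4 transgenic values lay below all others. Srebf1 fell by 1.21 ± 0.21 (estimate ± SE, n = 4 per group, limma adjusted p = 0.00535) in transgenic against wild type livers and rose by 0.86 ± 0.21 (adjusted p = 0.0107) with metformin. Its metformin-treated mean was 0.35 below wild type, with a 95% interval of the difference from -0.80 to 0.10, so a remaining deficit of that order was not separable from none.

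Thrsp, also called Spot 14, is a small nuclear and cytosolic protein that promotes lipogenesis and answers to thyroid hormone and carbohydrate. Its signal was 11.14, 11.68, 11.21 and 11.67 in wild type, 7.95, 10.27, 8.23 and 9.36 in transgenic and 11.18, 11.40, 11.55 and 11.61 in metformin-treated livers. The transgenic arrays spread over more than 2 log2 units, from replicate 1 at the bottom to replicate 2 at the top, and still lay below every other array. Thrsp showed the largest called differences of all members, -2.47 ± 0.40 (limma adjusted p = 0.00419) for transgenic against wild type and 2.48 ± 0.40 (adjusted p = 0.00153) for metformin-treated against transgenic livers. Metformin-treated and wild type means differed by 0.0063 (95% interval -0.86 to 0.87).

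Mid1ip1 is the paralogue of Thrsp and a partner of acetyl-CoA carboxylase that favours its polymerisation. It read 8.72, 8.38, 8.96 and 8.90 in wild type, 8.11, 8.26, 7.67 and 7.63 in transgenic and 8.37, 8.04, 7.92 and 8.31 in metformin-treated livers. It fell by 0.82 ± 0.17 in transgenic livers (limma adjusted p = 0.0125). Its metformin difference was 0.24 ± 0.17 (adjusted p = 0.327), and all 4 metformin-treated values lay below all 4 wild type values (-0.58, 95% interval -0.95 to -0.21, limma adjusted p = 0.0986). A dimmer second row for Mid1ip1 gave -0.14 for transgenic minus wild type, so the 2 rows differ in size.

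The sequences before the starts of these genes are shown because Srebf1, Thrsp and Fasn had the largest called drops of the members, and Lpin2 and Elovl6 are the members with a match to the FoxO element. RefSeq promoter windows (build GRCm38.p6, 250 bases before to 50 after a start) were held for 25 of the 31 members, 33 windows in all. Capitals mark matches, on either strand, to the NF-Y box CCAAT, the E-box CACGTG, the sterol response element TCACNCCAC, the FoxO element GTAAACA or the nuclear receptor motif AGGTCA. For Srebf1 and Lpin2, each with 3 annotated windows, 1 is shown. For Lpin2 it is the only 1 of the 3 with a match to the FoxO element. The 250 bases before the start, read 5′ to 3′ on the gene's strand, were as follows.
Thrsp, chr7:97417551-97417800, minus strand: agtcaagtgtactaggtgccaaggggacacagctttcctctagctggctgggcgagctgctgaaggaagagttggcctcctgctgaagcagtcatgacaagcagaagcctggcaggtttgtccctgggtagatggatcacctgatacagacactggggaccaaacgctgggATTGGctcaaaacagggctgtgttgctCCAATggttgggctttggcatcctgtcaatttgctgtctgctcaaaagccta
Fasn, chr11:120824548-120824797, minus strand: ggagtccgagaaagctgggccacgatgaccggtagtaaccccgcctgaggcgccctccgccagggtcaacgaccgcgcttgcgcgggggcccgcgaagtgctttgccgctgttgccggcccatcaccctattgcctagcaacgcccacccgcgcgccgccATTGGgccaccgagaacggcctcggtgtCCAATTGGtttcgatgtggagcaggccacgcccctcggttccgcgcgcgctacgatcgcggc
Srebf1, chr11:60210472-60210721, minus strand: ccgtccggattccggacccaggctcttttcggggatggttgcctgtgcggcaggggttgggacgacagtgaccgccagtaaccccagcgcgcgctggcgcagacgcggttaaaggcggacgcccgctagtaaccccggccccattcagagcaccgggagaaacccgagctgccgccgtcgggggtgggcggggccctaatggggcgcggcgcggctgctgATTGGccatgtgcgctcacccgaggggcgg
Lpin2, chr17:71204404-71204653, plus strand: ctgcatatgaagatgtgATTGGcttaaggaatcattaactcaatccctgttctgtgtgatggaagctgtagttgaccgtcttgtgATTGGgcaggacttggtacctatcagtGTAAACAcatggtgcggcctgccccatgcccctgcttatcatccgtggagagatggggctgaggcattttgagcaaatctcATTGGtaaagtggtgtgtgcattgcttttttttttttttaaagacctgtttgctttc
Elovl6, chr3:129532136-129532385, plus strand: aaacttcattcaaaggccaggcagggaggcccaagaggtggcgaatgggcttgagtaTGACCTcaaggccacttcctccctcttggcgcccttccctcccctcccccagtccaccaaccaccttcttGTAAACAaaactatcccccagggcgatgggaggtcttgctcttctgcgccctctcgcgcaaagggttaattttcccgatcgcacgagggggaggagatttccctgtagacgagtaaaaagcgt

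The NF-Y box, the site of a factor known to act with SREBP at lipogenic promoters, was in 54.5% of the members' windows and in 37.4% of all 32851 windows of the table. In Fasn it occurs on both strands in the run CCAATTGG, where the 2 matches overlap, and once more upstream. The E-box was in 12.1% of member windows (Elovl5, Lpin2, Pnpla5 and Slc25a1) against 7.15% of all, and the nuclear receptor motif in 18.2% against 16.3%. The FoxO element was in 6.06% of member windows (Elovl6 and Lpin2) against 3.65% of all. No member window held TCACNCCAC, which 1.24% of all windows held; other spellings of a sterol element were not searched. These are matches of letters and no measure of binding.

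Of the members that supply precursors, Acly, Acss2, Slc25a1 and Me1, all 4 fell in transgenic livers. Of the 4 further NADPH-supply genes tested outside the members, Pgd, Taldo1, Tkt and Idh1, limma called 0 in that comparison, with 2 estimates above 0 and 2 below. Pgd, the 1 of these at an unadjusted p under 0.05, had a positive difference of 0.64 ± 0.21 (limma adjusted p = 0.0612). Acss2 makes acetyl-CoA from acetate in the cytosol. Its values were 11.11, 10.81, 11.04 and 11.26 in wild type, 10.16, 10.84, 9.61 and 9.93 in transgenic and 11.06, 10.40, 11.07 and 11.33 in metformin-treated livers. Transgenic replicate 2 lay within the wild type range and the other 3 below it. Acss2 fell by 0.92 ± 0.25 in transgenic livers (limma adjusted p = 0.0299) and rose by 0.83 ± 0.25 with metformin (adjusted p = 0.0287).

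Acly splits citrate to acetyl-CoA. It read 10.07, 10.20, 10.26 and 10.49 in wild type, 10.001, 9.59, 9.17 and 9.28 in transgenic and 10.24, 9.71, 9.81 and 10.35 in metformin-treated livers, with no overlap between the wild type and transgenic groups. It fell by 0.75 ± 0.19 in transgenic livers (limma adjusted p = 0.0254), and with metformin the difference was 0.52 ± 0.19 (adjusted p = 0.0655). Slc25a1, the mitochondrial citrate exporter, had the smallest called drop of the members. It read 11.53, 11.52, 11.61 and 11.48 in wild type, 11.32, 11.34, 11.07 and 11.20 in transgenic and 11.35, 11.15, 11.33 and 11.33 in metformin-treated livers, so that both transgenic groups lay below the wild type range. The change was -0.30 ± 0.079 in transgenic livers (limma adjusted p = 0.027), and 0.057 ± 0.079 with metformin (adjusted p = 0.637). Me1, malic enzyme, supplies cytosolic NADPH. Its values were 10.72, 10.996, 10.84 and 10.86 in wild type, 10.47, 10.57, 10.20 and 10.37 in transgenic and 11.10, 10.63, 11.01 and 11.21 in metformin-treated livers, and the transgenic arrays lay below all others. Me1 fell by 0.45 ± 0.12 (limma adjusted p = 0.0325) and rose by 0.59 ± 0.12 with metformin (adjusted p = 0.00612). A second Me1 row gave -0.48 and 0.63.

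The committed enzymes Acaca and Fasn fell in transgenic livers and did not pass the test with metformin. Fasn, fatty acid synthase, read 11.27, 11.25, 11.41 and 11.59 in wild type, 10.70, 10.71, 9.32 and 9.89 in transgenic and 11.22, 10.49, 10.26 and 11.33 in metformin-treated livers. Every transgenic value lay below the wild type range, and in the metformin-treated group replicates 2 and 3 lay within the transgenic range while replicates 1 and 4 lay within or beside the wild type values. The difference was -1.23 ± 0.31 for transgenic against wild type (limma adjusted p = 0.0256) and 0.67 ± 0.31 with metformin (adjusted p = 0.14), and metformin-treated livers stood at -0.56 against wild type (95% interval -1.24 to 0.13).

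Acaca, the cytosolic acetyl-CoA carboxylase that makes malonyl-CoA for synthesis, followed the same order of group means in the row used. Its signal was 9.90, 10.05, 10.11 and 10.09 in wild type, 9.32, 9.83, 8.73 and 8.94 in transgenic and 10.24, 9.53, 9.55 and 10.16 in metformin-treated livers. Acaca fell by 0.83 ± 0.23 (limma adjusted p = 0.0323), and its metformin difference of 0.67 ± 0.23 just missed the threshold (adjusted p = 0.0501). A second, dimmer row gave -0.85 and 1.03. Acacb, the mitochondria-associated carboxylase that restrains fatty acid oxidation, differed by only -0.086 ± 0.18 and -0.13 ± 0.18 in these comparisons, with adjusted p of 0.764 and 0.64.

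**Figure D2:**
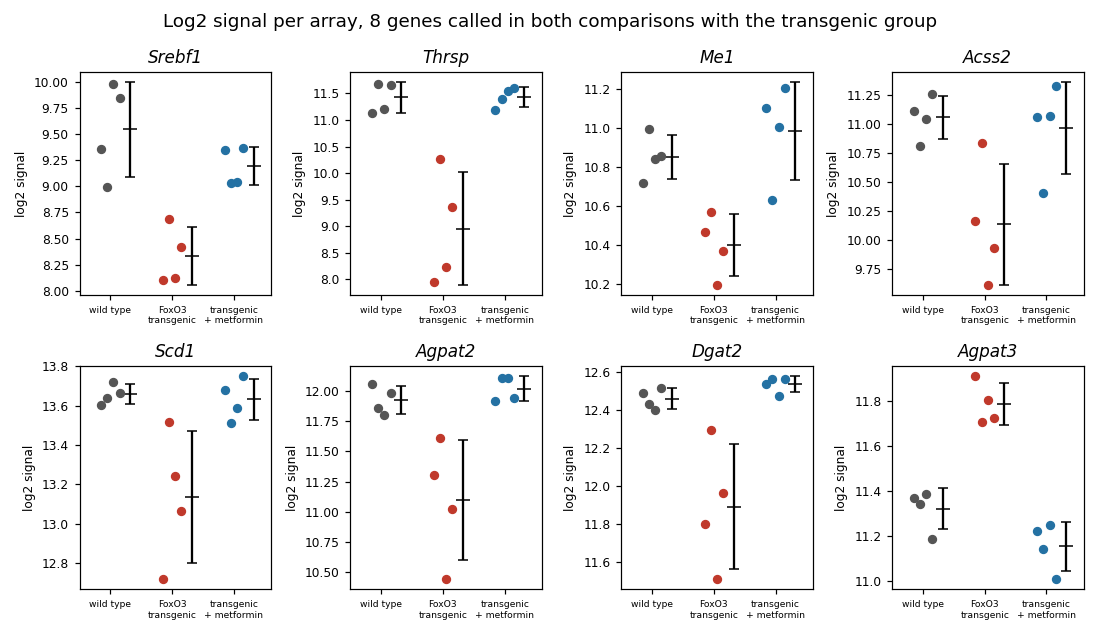
Points are the log2 signals of single arrays of the 8 members called both in transgenic against wild type and in metformin-treated against untreated transgenic livers; black bars give mean and SD (n = 4). All 4 transgenic arrays lie below both other groups for Srebf1, Thrsp, Me1, Agpat2 and Dgat2 and above them for Agpat3, while Acss2 and Scd1 overlap in replicate 2.

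Among the desaturases, Scd1 was called in both comparisons with the transgenic group. Scd1 makes the monounsaturated fatty acids oleate and palmitoleate. It read 13.61, 13.64, 13.72 and 13.67 in wild type, 12.72, 13.52, 13.24 and 13.06 in transgenic and 13.68, 13.51, 13.59 and 13.75 in metformin-treated livers. Transgenic replicate 2 stood just under the lowest wild type value and just above the lowest metformin-treated one. Scd1 fell by 0.52 ± 0.14 (limma adjusted p = 0.0271) and rose by 0.50 ± 0.14 with metformin (adjusted p = 0.0201). Fads1, the delta-5 desaturase of polyunsaturated fatty acids, read 12.77, 12.66, 12.72 and 12.92 in wild type, 12.59, 12.53, 12.33 and 12.59 in transgenic and 12.96, 12.90, 12.77 and 12.98 in metformin-treated livers. Its transgenic values lay below both other groups; the difference of -0.26 ± 0.086 was not called (limma adjusted p = 0.0632), and the rise with metformin was (0.39 ± 0.086, adjusted p = 0.00728). Fads2, the delta-6 desaturase, differed by -0.14 ± 0.13 and 0.14 ± 0.13 and overlapped between all groups. Scd2, the isoform prominent in brain and fetal liver, ranged from 6.72 to 9.71 in transgenic livers alone, and its difference of 0.82 ± 0.53 was not called (adjusted p = 0.305).

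The 5 elongases did not move as a block: in transgenic against wild type livers 0 of 5 were called by limma (1, Elovl5, at an unadjusted p under 0.05), and with metformin Elovl2 rose and Elovl1 fell. Elovl2, which extends long polyunsaturated chains, read 12.14, 11.79, 11.97 and 12.17 in wild type, 12.06, 11.78, 11.78 and 11.95 in transgenic and 12.49, 12.32, 12.32 and 12.37 in metformin-treated livers, the last above all others. The rise with metformin was 0.48 ± 0.098 (limma adjusted p = 0.00492), and against wild type the difference was 0.36 ± 0.098 (adjusted p = 0.078). Elovl1, which makes very long saturated chains, read 10.12, 10.07, 10.02 and 10.04 in wild type, 10.51, 10.03, 10.14 and 10.22 in transgenic and 9.92, 9.61, 9.84 and 9.56 in metformin-treated livers, the last below all others. It fell by 0.50 ± 0.11 with metformin (limma adjusted p = 0.00774) after a difference of 0.16 ± 0.11 in transgenic livers (adjusted p = 0.33). Elovl5 lay lower in all 4 transgenic than in all 4 wild type livers without being called (-0.31 ± 0.10, adjusted p = 0.0579). Elovl6, which extends palmitate to stearate and is a well known SREBP-1 target, stood at 0.29 ± 0.18 in transgenic livers (95% interval -0.095 to 0.68), unlike the negative estimates of Fasn and Scd1, which are also targets of SREBP-1; whether it differs from them was not tested.

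Elovl3, known for higher expression in male than in female mouse liver, was singled out after its values were seen. Wild type replicates 2 and 3, with Y-linked signal, read 10.98 and 11.96, and replicates 1 and 4, with Xist signal, read 6.51 and 6.54. Of the 4 transgenic livers, all with Y-linked signal, replicate 2 read 10.45 and replicates 1, 3 and 4 read 4.14, 4.86 and 5.56. The metformin-treated livers, all with Xist signal, read 5.76 to 6.09. Elovl3 had an SD of 2.88 in wild type and 2.86 in transgenic livers, and its difference of -2.75 ± 1.43 was not called (limma adjusted p = 0.207). It was called in a limma fit with the sex signal as a covariate (-5.08, adjusted p = 0.0433) and in the fit without transgenic replicate 2 (-4.14, adjusted p = 0.0208). Replicate 2 held the highest transgenic value, so leaving it out favours a call, and that fit had no term for the sex signal. It was the single member of the 30 whose wild type arrays with Xist and with Y-linked signal differed in mean by 0.5 or more.

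**Figure D3:**
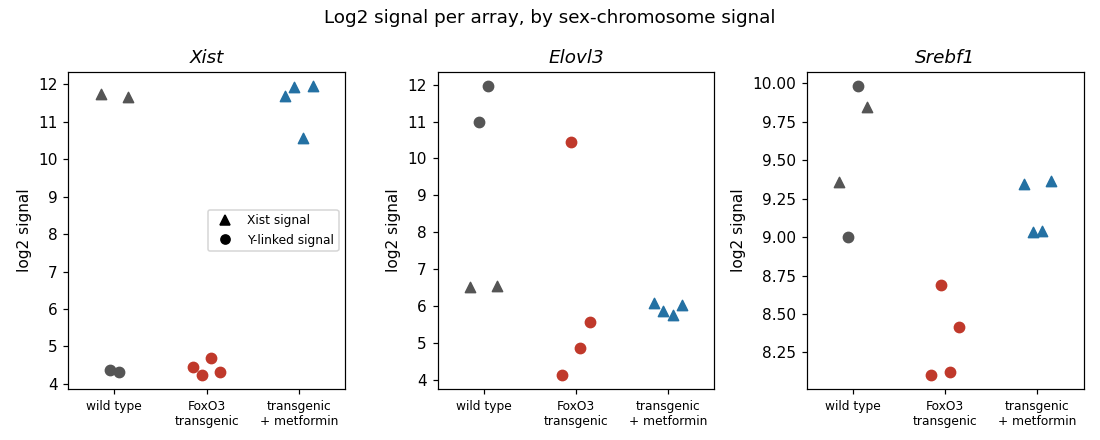
Log2 signal per array for Xist, Elovl3 and Srebf1 in the 3 groups; triangles are arrays with Xist signal and circles arrays with Y-linked signal. Elovl3 splits by this signal within wild type and 3 of the 4 transgenic circles lie below 6, whereas Srebf1 has triangles and circles mixed within wild type and all transgenic arrays below the others.

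Acyl-CoA activation is represented by Acsl5, an acyl-CoA synthetase. It read 11.45, 11.13, 11.29 and 11.53 in wild type, 10.76, 11.19, 10.56 and 11.09 in transgenic and 11.55, 11.20, 11.62 and 11.58 in metformin-treated livers. The transgenic difference of -0.45 ± 0.15 was not called (limma adjusted p = 0.0622), and the rise of 0.59 ± 0.15 with metformin was (adjusted p = 0.0139).

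In glycerolipid assembly, members moved in both directions. Agpat2, the acyltransferase that makes phosphatidic acid and whose loss causes lipodystrophy, read 12.06, 11.86, 11.80 and 11.98 in wild type, 11.30, 11.61, 10.44 and 11.03 in transgenic and 11.92, 12.11, 12.11 and 11.94 in metformin-treated livers. Its transgenic values lay below all others. It fell by 0.83 ± 0.19 (limma adjusted p = 0.0175) and rose by 0.93 ± 0.19 with metformin (adjusted p = 0.00546). Its relative Agpat3, an acyltransferase that also serves phospholipid remodelling, went the other way. Agpat3 read 11.37, 11.34, 11.38 and 11.19 in wild type, 11.91, 11.71, 11.80 and 11.72 in transgenic and 11.22, 11.14, 11.25 and 11.01 in metformin-treated livers. The transgenic arrays were above all others and close together. Agpat3 rose by 0.47 ± 0.080 (limma adjusted p = 0.00557) and fell by 0.63 ± 0.080 with metformin (adjusted p = 4.95e-04).

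The lipins, phosphatidate phosphatases that give diacylglycerol, were called in different comparisons. Lpin1, which fasting and glucocorticoids raise in liver, read 10.47, 10.80, 9.94 and 10.09 in wild type, 9.54, 10.09, 9.54 and 10.31 in transgenic and 11.11, 11.59, 10.11 and 11.23 in metformin-treated livers. It rose by 1.14 ± 0.30 with metformin (limma adjusted p = 0.0171), although metformin-treated replicate 3 lay within the transgenic range, and it was not called in transgenic against wild type livers (-0.45 ± 0.30, adjusted p = 0.317). Lpin2, the main hepatic isoform, read 10.53, 10.80, 10.29 and 10.31 in wild type, 11.21, 10.70, 11.48 and 11.49 in transgenic and 10.82, 11.24, 10.27 and 11.04 in metformin-treated livers. It rose by 0.74 ± 0.22 in transgenic livers (limma adjusted p = 0.0455), the closest to the threshold of the 14 calls, and differed by -0.38 ± 0.22 with metformin (adjusted p = 0.238). Gpam, the mitochondrial glycerol-3-phosphate acyltransferase and an SREBP-1 target, was not called at 0.17 ± 0.12 and -0.30 ± 0.12.

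Dgat1 and Dgat2 catalyse the last step, and Dgat2 is the enzyme tied to newly made fatty acids. Dgat2 read 12.49, 12.43, 12.40 and 12.52 in wild type, 11.80, 12.30, 11.51 and 11.96 in transgenic and 12.54, 12.57, 12.48 and 12.57 in metformin-treated livers. It fell by 0.57 ± 0.13 (limma adjusted p = 0.0172) and rose by 0.65 ± 0.13 with metformin (adjusted p = 0.00492), and its SD was 0.053 in wild type, 0.33 in transgenic and 0.042 in metformin-treated livers. Dgat1 read 8.80, 8.72, 8.96 and 8.82 in wild type, 8.43, 8.84, 8.39 and 8.54 in transgenic and 8.84, 8.87, 9.14 and 9.001 in metformin-treated livers. Transgenic replicate 2 lay among the wild type values. The difference was -0.27 ± 0.11 for transgenic against wild type (limma adjusted p = 0.109), and Dgat1 rose by 0.41 ± 0.11 with metformin (adjusted p = 0.0167). Mogat1, a monoacylglycerol acyltransferase, was too dim to be tested and read 3.85 to 4.49 over all 12 arrays.

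Pnpla3, a lipid droplet protein whose gene is induced by SREBP-1c, read 6.33, 6.25, 6.27 and 6.67 in wild type, 6.19, 5.84, 5.68 and 6.14 in transgenic and 6.47, 6.20, 6.70 and 6.47 in metformin-treated livers. All 4 transgenic values lay below both other groups. The difference of -0.42 ± 0.14 was not called (limma adjusted p = 0.0689), and Pnpla3 rose by 0.49 ± 0.14 with metformin (adjusted p = 0.025). Its relative Pnpla5 read 4.65 to 5.13 over all arrays and was called in no comparison.

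**Figure D4:**
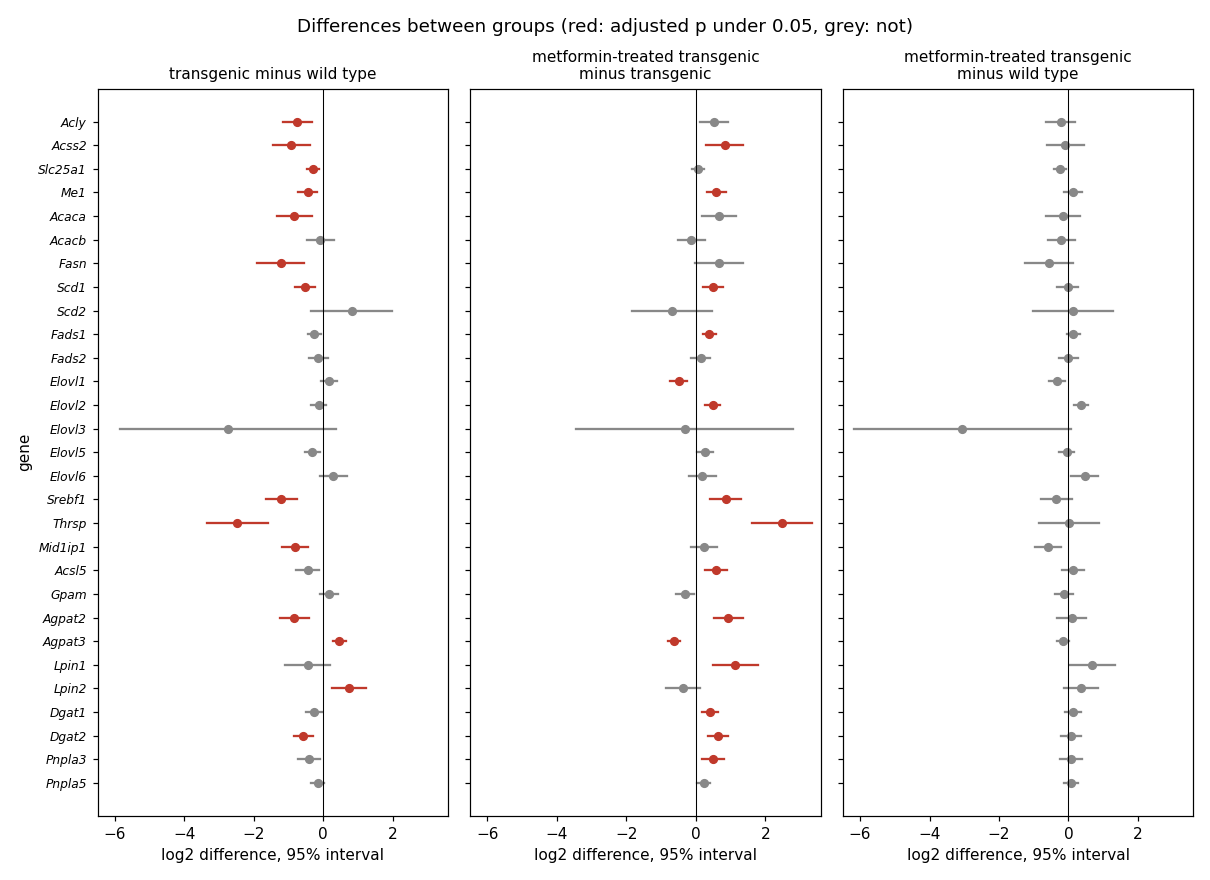
Points are limma estimates of the log2 difference for the 29 tested members in the 3 comparisons and lines their 95% intervals; red marks an adjusted p under 0.05. Most red points are left of 0 in the first panel and right of 0 in the second, Agpat3 runs the opposite way in both, and the third panel holds no red point.

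Across the members, 8 were called in both comparisons with the transgenic group, Srebf1, Thrsp, Me1, Acss2, Scd1, Agpat2, Dgat2 and Agpat3, all 8 with opposite signs. The same 4 transgenic arrays enter these comparisons on opposite sides, which by itself favours opposite signs. The share of all genes called in both was not computed. Called in transgenic against wild type livers alone were Acaca, Fasn, Acly, Slc25a1, Mid1ip1 and Lpin2, and with metformin alone Acsl5, Dgat1, Elovl1, Elovl2, Fads1, Lpin1 and Pnpla3; a difference between these sets was not tested. The other 8 were called in neither. Limma's F test over the 3 groups called 20 of the 29, where it called 24.2% of all genes. Groups did not overlap for 15 members in transgenic against wild type (14 lower and 1 higher; of all genes, 11% and 10.9%, together 21.9%), for 12 with metformin (9 higher and 3 lower; 9.93% and 11.7%, together 21.6%) and for 6 in metformin-treated against wild type (2 higher and 4 lower; 6.21% and 8.23%, together 14.4%). These 6 were Slc25a1, Mid1ip1, Elovl1 and Elovl3, which were lower, and Elovl2 and Elovl6, which were higher.

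The members varied most within the transgenic group. The SD of a member was larger in transgenic than in wild type livers for 24 of 29 members (71% of all tested genes) and larger than in metformin-treated livers for 22 of 29 (50.1%). The median SD of the members was 0.159 in wild type, 0.29 in transgenic and 0.195 in metformin-treated livers. Since limma gives each gene 1 spread for all groups, standard errors for a single comparison may be too small or too large. Transgenic replicate 2 was the transgenic array closest to the wild type mean for 13 of the 14 members called there, Acly being the exception, and for 75% of all called genes. Without this replicate 18 members were called, 16 lower and 2 higher, against 26.8% of all genes, and 17 with metformin, against 32.3%. The count without another array was 9, 6 and 6 without transgenic replicates 1, 3 and 4, 6, 7, 6 and 6 without wild type replicates 1 to 4, and 13 to 17 without a metformin-treated array. Of 14953 tested genes, 1138, 764 and 1198 were called without transgenic replicates 1, 3 and 4. Without wild type replicates 1 to 4 the counts were 941, 1103, 1187 and 1034, and without a metformin-treated array 1673 to 3254. Counts of all genes called ran from 764 to 4004 over all fits with 1 array left out. Srebf1, Thrsp, Mid1ip1, Dgat2 and Agpat3 were called with any single array of the 12 left out. With metformin the count ran from 11 to 17, while 2419 to 4828 of all genes were called. Thrsp, Srebf1, Me1, Dgat2, Agpat2, Agpat3, Elovl1, Elovl2, Fads1 and Acsl5 were called each time.

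For 11 of the 12 members that fell, all but Acss2, all 4 transgenic values lay below all 4 wild type values. Such separation held for 11% of all tested genes. The 12 were picked by their calls on these same arrays, which favours it, and the share among all genes called lower was not computed. That the 11 lay below both wild type arrays with Y-linked signal follows from the separation and is no separate check. Over the 14 called members, the Xist-signal mean minus the Y-linked-signal mean within wild type ran from -0.13 to 0.26, and over the 15 called with metformin from -0.13 to 0.28. Each of these means is over 2 arrays, which can lie further apart than the means. Srebf1 read 8.998 and 9.98 in the 2 with Y-linked signal. In limma with the sex signal as a covariate, estimates of the 14 were 90.7% to 115% of those without it, but 3 of the 14 were called (Srebf1, Thrsp and Agpat3), where 4.35% of all genes were called. In metformin-treated against transgenic livers the covariate left all 15 signs in place, with 48.1% (Elovl2) to 123% (Me1) of the estimate, and 0 of the 15 called (limma; 0.548% of all genes called). Only the wild type group holds both signals, so the size of that term rests on its 4 arrays. With the covariate and without transgenic replicate 2, 13 of the 14 and 7 of the 15 were called, against 20.1% and 12.3% of all genes.

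Of 42 further genes of the pathway, 37 were tested: 3 fell and 1 rose in transgenic against wild type livers, and 4 rose and 3 fell with metformin. Over all tested genes the shares called in these comparisons were 14.1% and 24.7%, so the 4 and the 7 of 37 were no larger a share than the background. Their median differences were -0.045 and -0.088. Gpat3, a glycerol-3-phosphate acyltransferase of the endoplasmic reticulum, fell by 0.97 ± 0.17 in transgenic livers (limma adjusted p = 0.0059) and rose by 1.24 ± 0.17 with metformin (adjusted p = 6.55e-04). It read 8.28, 8.12, 8.13 and 8.25 in wild type, 6.88, 7.05, 7.19 and 7.81 in transgenic and 8.29, 8.68, 8.58 and 8.33 in metformin-treated livers. Mlxipl, which encodes the carbohydrate-responsive factor ChREBP that drives the pathway beside SREBP-1c, read 10.74, 10.79, 10.69 and 10.88 in wild type, 9.87, 10.71, 9.93 and 9.98 in transgenic and 10.23, 10.26, 9.87 and 10.27 in metformin-treated livers. Mlxipl fell by 0.65 ± 0.17 (limma adjusted p = 0.0261) and differed by 0.036 ± 0.17 with metformin (adjusted p = 0.897), so that its mean was 0.62 below wild type, with a 95% interval of -0.98 to -0.25 and an adjusted p of 0.0769.

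Ppargc1b, a coactivator of SREBP-1, fell by 0.88 ± 0.23 in transgenic livers (limma adjusted p = 0.0269), and Acsl4, an acyl-CoA synthetase with a preference for arachidonate, rose by 0.83 ± 0.19 (adjusted p = 0.0172). With metformin, Hacd3, a dehydratase of the elongation cycle, rose by 0.52 ± 0.095 (limma adjusted p = 0.00299) and the NADPH-forming Idh1 by 0.34 ± 0.10 (adjusted p = 0.0287). Scap, the escort protein of the SREBPs, fell by 0.36 ± 0.080 with metformin (limma adjusted p = 0.00787). Against wild type 0 of the 37 were called in metformin-treated livers (limma; 9 at an unadjusted p under 0.05); by list order, Mlx stood there at 0.12 ± 0.14, Nr1h3 at 0.31 ± 0.15 and Rxra at -0.41 ± 0.18.

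Markers of some other cells moved with the comparisons and those of others were not called. Of 10 macrophage and Kupffer cell markers 4 rose in transgenic livers, 4 fell with metformin and 0 were called between metformin-treated and wild type livers (limma). Over all genes, 7.97% were called higher in the first comparison and 14.1% lower in the second. At an unadjusted p under 0.05 were 8, 7 and 0 of the markers, and 31.5%, 37.5% and 17% of all genes. All 10 markers had estimates above 0 in the first and below 0 in the second comparison, with medians of 0.70 and -0.60. Their summed signal, as log2, ranged from 12.39 to 13.17 in wild type, 12.98 to 13.71 in transgenic and 12.25 to 13.22 in metformin-treated livers. Of 8 hepatocyte markers 2 fell in transgenic livers (6.15% of all genes were called lower) and 1 rose with metformin (10.6% were called higher). Their summed signal ranged from 16.35 to 16.40, 16.23 to 16.33 and 16.37 to 16.43 in the same order. The adipocyte genes Adipoq and Lep read at most 4.32 in any array. Of 7 listed adipocyte genes, 5 were measured and 3 tested. Of these 3, Fabp4 rose in transgenic livers, fell with metformin and was lower with metformin than in wild type. Of all genes, 7.97% were called higher, 14.1% lower and 1.44% lower in these comparisons. Fabp4 had means of 7.97 in wild type, 8.38 in transgenic and 7.40 in metformin-treated livers. The other 2 had estimates of the opposite sign in the comparisons with the transgenic group and were not called: Plin1 had means of 5.71, 5.47 and 5.74 and Retn of 5.28, 5.14 and 5.33 in the same order. Of 7 stellate cell markers 1 rose and 1 fell in transgenic livers (of all genes, 7.97% and 6.15%), and 1 fell with metformin (14.1%). Limma called 0 of 6 endothelial, 0 of 3 tested cholangiocyte and 0 of 3 tested lymphocyte markers in each of the 3 comparisons, with at most 1, 2 and 1 of them at an unadjusted p under 0.05 in any comparison. The summed endothelial signal was 11.50 in metformin-treated replicate 3 against 12.55 to 12.72 in the other 3 of its group. The part of these cells in the members' differences was not tested.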

How the data were processed

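Per the labels, total RNA was taken from 12 mouse livers, labelled by the submitters as biological replicates, and hybridised to Affymetrix arrays. The authors deposited 1 table of log2 signals for the 12 arrays; Affymetrix Expression Console is named in the submitters' processing notes, and the sources do not name the background correction or normalization. The number of arrays limits the precision.

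Of 35556 rows, 21789 named exactly 1 gene through the platform annotation, 1621 named several and 12146 none; 21698 matched RefSeq by Entrez identifier and no symbol changed. The row of highest mean stood for each of 19938 genes, and the dimmest 25% were left out, leaving 14953. The deposited log2 values of all 12 arrays were fitted in 1 model with limma 3.58.1 (R 4.3.3, lmFit and eBayes), with Benjamini-Hochberg adjustment over all tested genes at 0.05 for each comparison. The fit was also run on simulated data with independent noise and 1 SD per gene for all groups. Unequal spread between groups and the sex signal were not simulated, so that run cannot speak to them.

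Members called in any comparison, and Fasn, Acaca, Scd1, Srebf1 and Dgat1, were named with all values; of the other pathway genes, up to 4 called with the smallest p in each comparison, or the first 4 of the list where none was called. The members, lists and tests were chosen with earlier results of these data known. Alternatives were the dim filter, the row rule, quantile normalization, median centring, trended and robust eBayes, array weights, the compared arrays alone, a replicate block, the sex signal, and each array left out. The sex covariate was Xist minus the mean of Eif2s3y, Kdm5d and Uty; Ddx3y was not used here.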

Additional observations from a re-analysis of the deposited data

Results flagged for a closer look

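Single arrays stood apart from their group for 5 members, by a gap to the nearest array above Dixon's 95% critical value, as a share of the group's range. In all, 93 groups of 4 arrays were checked, and chance alone would mark about 1 group in 20. Slc25a1 in metformin-treated replicate 2 had a gap of 0.902 of the range, at 11.15 against 11.33 to 11.35 in the others. Acsl5 was lowest in the same array, with a gap of 0.835, at 11.20 against 11.55 to 11.62. Fads2 in metformin-treated replicate 3 had a gap of 0.865, at 12.47 against 12.86 to 12.92. Scd2 in wild type replicate 4 was the highest of its group with a gap of 0.862, at 7.77 against 6.90 to 7.02. Elovl6 in wild type replicate 2 was the highest with a gap of 0.837, at 11.07 against 10.81 to 10.85.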

How the results depend on the processing

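Every member called in transgenic against wild type or in metformin-treated against untreated transgenic livers kept its sign under every alternative run. For transgenic against wild type, 2111 genes and 14 members were called; the counts were 4818 genes with array weights, 650 genes and 4 members with the sex signal as a covariate, and 9 genes and 0 members with only arrays of Y-linked signal (2 wild type arrays). With 1 array left out they ran from 764 to 4004 genes and from 6 to 18 members. For metformin-treated against transgenic, 3695 genes and 15 members became 6428 genes with array weights, 2354 genes with only the 8 arrays compared, 82 genes and 0 members with the sex covariate, and 1845 genes and 8 members with the covariate and without transgenic replicate 2; leaving out 1 array gave 2419 to 4828 genes. Elovl3 reversed in this last comparison, to 5.573 (limma adjusted p = 6.27e-04), under the covariate without transgenic replicate 2. For metformin-treated against wild type, 364 genes and 0 members became 227 genes with trended and robust eBayes, 3057 genes and 8 members with array weights, 14 genes with the sex covariate, 29 genes when transgenic replicate 2 was left out too, and 1 gene with only arrays of Xist signal. Leaving out 1 array gave 70 to 775 genes, lowest without metformin-treated replicate 4 and highest without replicate 3, and 0 to 1 members, the 1 being Lpin1 without metformin-treated replicate 3. The cause of these changes was not tested. The difference in Foxo3 level, 0.05, was -0.01878 after quantile normalization and ran from -0.02579 to 0.1236 with 1 array left out.

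The replicate numbers were not treated as pairs in the main fit. Deviations of same-numbered arrays correlated at -0.176 to 0.235, which cannot settle whether the numbers pair animals. With the replicate block 1807, 3349 and 135 genes were called in the 3 comparisons, and 10, 14 and 0 members; Acaca, Acss2, Lpin2, Me1 and Slc25a1 were not called in the first and Acss2 in the second, while Fads1 was called in the first with the block but not without it (limma adjusted p = 0.0488).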
